A study of Homo sapiens with 5 samples.

Results

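The 9 TMED genes measured in these cells, TMED1, TMED2, TMED3, TMED4, TMED5, TMED7, TMED8, TMED9 and TMED10, were taken by their gene symbols from the 64252 genes of the deposited count table. They encode the p24 proteins, also called TMED cargo receptors. RNA was measured in RPE-1 cells, an immortalized epithelial line from human retinal pigment epithelium that the labels give as wild type, 48 hr after transfection with siRNA. Control cells (siCtrl, 3 libraries) received a non-targeting ON-TARGET control siRNA, and knock-down cells (siFAM53C, 2 libraries) received a pool of ON-TARGETplus siRNAs against FAM53C, each at 5 µM by the labels and with the same transfection reagent. The study made this comparison to ask whether CDKN1A, the gene for the cell cycle inhibitor p21, is transcribed more when FAM53C is knocked down. The pool was compared with a single control siRNA, so the loss of FAM53C and other effects of the siRNA sequences cannot be told apart.

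The p24 proteins are small membrane proteins that cycle between the endoplasmic reticulum (ER) and the Golgi. Their lumenal GOLD domain takes part in binding cargo and one another, and their short cytosolic tails bind the COPII coat, which buds vesicles from the ER, and the COPI coat, which returns them from the Golgi. They are best known for carrying proteins with a glycosylphosphatidylinositol (GPI) anchor out of the ER, and they work as complexes that combine members of the α (TMED4, TMED9), β (TMED2), γ (TMED1, TMED3, TMED5, TMED7) and δ (TMED10) subfamilies. TMED8 is a more distant GOLD-domain protein and is kept apart here.

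The libraries held from 19260124 to 25615415 counts on genes. FAM53C itself had from 57.6 to 60.9 CPM (counts scaled to a common library total with TMM factors) in siCtrl and 14.2 and 22.3 in siFAM53C. The libraries also varied in a way that the siRNA did not define: a principal component with 39.8% of the variance of log2 CPM set siCtrl replicate 3 and siFAM53C replicate 2 (33.7 and 44.9) apart from siCtrl replicates 1 and 2 (-31.5 and -47.4), and siFAM53C replicate 1 (0.264) lay between these. Differences are therefore also given within each side of this split, siFAM53C replicate 1 against siCtrl replicates 1 and 2 and siFAM53C replicate 2 against siCtrl replicate 3, and a fit with a term for the split is given beside the results. Placing siFAM53C replicate 1 with siCtrl replicates 1 and 2 was a choice, as the component put it on neither side. Of the markers listed for the cell type, 2 of 5 epithelial genes (KRT8 and KRT18, at least 147.6 CPM) were above 1 CPM in each library, and KRT19, CDH1 and EPCAM stayed below it. Of 8 retinal pigment epithelium genes, MITF, OTX2 and PAX6 had at least 13.5 CPM. BEST1, RLBP1 and TYR stayed under 1 CPM, PMEL had from 0.552 to 1.23 CPM, and RPE65, a defining enzyme of the mature tissue, was at 0 in all 5 libraries. All 5 mesenchymal genes were above 1 CPM, with VIM and FN1 at 3226 CPM or more, and of 3 leukocyte genes the highest value was 1.05 CPM (PTPRC). Among the 22 markers listed, COL1A1, at 15.8 to 29.4 CPM, was called higher in siFAM53C, and its part in the results was not tested.

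Knock-down of FAM53C was accompanied by lower RNA of 3 of the 9 p24 genes: TMED5 and TMED7 of the γ subfamily and TMED10, the only δ member. Each fell by 0.73 to 0.78 on the log2 scale, to about 0.6 of the control level. TMED2, the β partner of TMED10, was 0.28 lower on this scale without passing the test, and TMED4 and TMED8 had log2 fold changes of 0.13 and 0.17 that did not pass it either. By edgeR's quasi-likelihood test with an adjusted p under 0.05, 3 members were lower and 0 higher (4 and 0 at an unadjusted p under 0.05, and 3 and 0 by DESeq2). Over all 15341 genes tested, 3.47% were lower and 0.489% higher (10.5% and 6.61% at an unadjusted p under 0.05, and 6.98% and 2.02% of the genes to which DESeq2 gave an adjusted p). All 9 members passed the filter on low counts. Their median log2 fold change was -0.28, beside 0.016 for all genes. In bulk RNA, fewer cells that express a gene and less of its RNA per cell cannot be told apart.

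**Figure D1:**
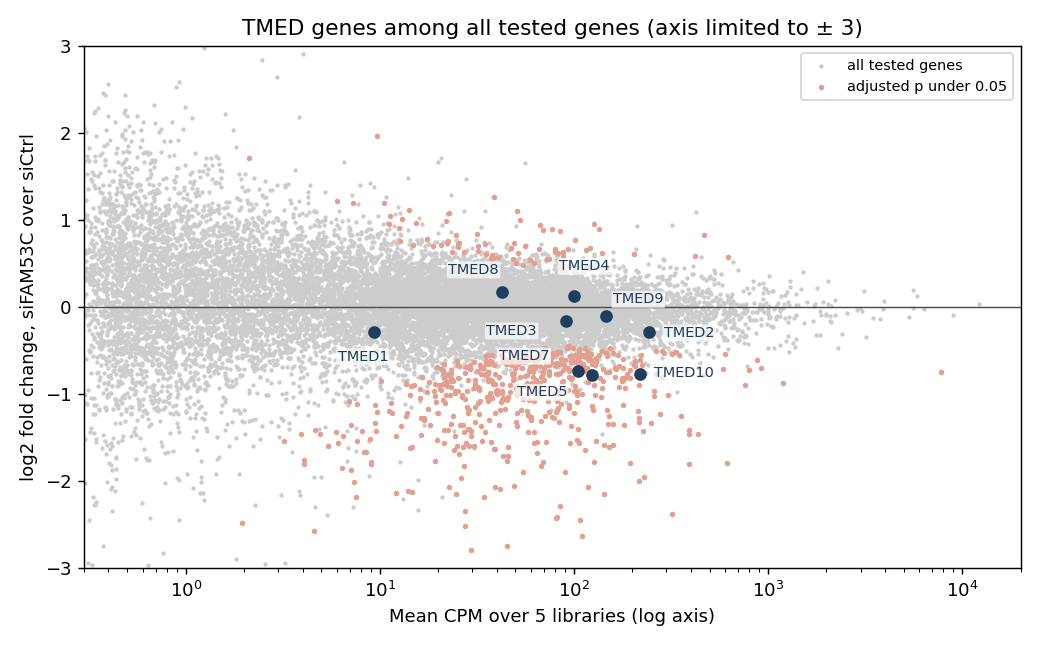
Each point is 1 of the tested genes, with its mean CPM over the 5 libraries on a log axis and its log2 fold change of siFAM53C over siCtrl on the vertical axis; genes past the threshold are coloured, the 9 TMED genes are dark and named, and 130 genes outside the axes are not drawn. TMED5, TMED7 and TMED10 lie close together near -0.75 among abundant genes, and the other 6 members lie between -0.28 and 0.17.

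TMED10 (ENSG00000170348) lies on chromosome 14 of GRCh38 from 75131469 to 75176612 on the minus strand. It is the δ member that forms the core of p24 complexes together with TMED2, and it has also been tied to unconventional secretion and to γ-secretase. It had 5938, 5077 and 5086 counts in siCtrl and 3784 and 3869 in siFAM53C. In CPM this was 252.1, 265.7 and 266.5 against 143.0 and 164.2. Both siFAM53C libraries lay far below the controls, which differed little from each other. The means were 261 ± 8.10 (SD, n = 3) and 154 ± 14.98 (SD, n = 2), and TMED10 fell by 0.77 in log2 units with an SE of 0.11 (edgeR quasi-likelihood, Benjamini-Hochberg adjusted p = 0.0106). On the sides of the split TMED10 differed by -0.86 and -0.70. Without siCtrl replicate 1 or 2 or siFAM53C replicate 1 it was between -0.79 and -0.68 and no longer past the threshold. Of its 4956 exon bases, 393 are shared with a gene on the opposite strand, ENSG00000273565. The pseudogenes TMED10P1 and TMED10P2 had 0 counts in every library. How the counting treated reads that match both a gene and a pseudogene is not given in the sources used here.

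TMED2 (ENSG00000086598) lies on chromosome 12 from 123584533 to 123598582 on the plus strand and encodes the only β member. It had 253.7, 265.3 and 272.1 CPM in siCtrl and 210.2 and 223.7 in siFAM53C. The groups did not overlap, but the distance between them was smaller than for TMED10. Its log2 fold change of -0.28 had an SE of 0.10 (edgeR quasi-likelihood, Benjamini-Hochberg adjusted p = 0.222), and the values on the sides of the split were -0.30 and -0.28. TMED2 was called lower with a term for the split (-0.29, edgeR adjusted p = 0.0145), where 10.7% of all genes were, and in no other alternative. Of its 3833 exon bases, 284 are shared with the divergent transcript TMED2-DT on the opposite strand, which had from 5 to 54 counts. The pseudogene TMED2P1 had 0 counts in all libraries.

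Because TMED2 and TMED10 work in the same complexes, their counts were also compared within each library, where no scaling between libraries enters. TMED10 had 0.993, 1.001 and 0.979 counts for each count of TMED2 in siCtrl. In siFAM53C the ratio was 0.681 and 0.734. The δ and β transcripts were thus counted almost equally in the controls and unequally in the knock-down libraries. The difference on the log2 scale was -0.49, where the SD of the log2 ratio was 0.016 in siCtrl and 0.077 in siFAM53C. An exact two-sided permutation test over the libraries, with 10 possible assignments, gave p = 0.1, the smallest value this design allows. Adjusted over the 5 ratios examined, which were chosen after the values had been seen, this exact permutation p was 0.25.

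TMED5 (ENSG00000117500), a γ member known for its part in the export of Wnt ligands, lies on chromosome 1 from 93149742 to 93180516 on the minus strand. It had 3078, 2867 and 3195 counts in siCtrl and 2130 and 2212 in siFAM53C, or 130.7, 150.0 and 167.4 CPM against 80.5 and 93.9. The siCtrl libraries spread more than for TMED10, with siCtrl replicate 3 highest, and still did not overlap with siFAM53C. The means were 149 ± 18.4 (SD, n = 3) and 87.2 ± 9.46 (SD, n = 2). TMED5 fell by 0.78 on the log2 scale with an SE of 0.14 (edgeR quasi-likelihood, Benjamini-Hochberg adjusted p = 0.02434), and by 0.80 and 0.83 within the sides of the split. Without siCtrl replicate 2 or with 1 of the siFAM53C libraries left out it was between -0.89 and -0.68 and was not called. Of its 9211 exon bases, 463 are shared with CCDC18 on the opposite strand.

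TMED7 (ENSG00000134970), the γ member that has been linked to the transport of Toll-like receptor 4, lies on chromosome 5 from 115613210 to 115632992 on the minus strand. It had 2727, 2489 and 2493 counts in siCtrl and 1770 and 1980 in siFAM53C. In CPM this was 115.8, 130.2 and 130.6 against 66.9 and 84.0. As for TMED5 and TMED10, siFAM53C replicate 1 lay below replicate 2, and both lay below every control. The means were 125.5 ± 8.47 (SD, n = 3) and 75.5 ± 12.1 (SD, n = 2), and TMED7 fell by 0.73 on the log2 scale with an SE of 0.13 (edgeR quasi-likelihood, Benjamini-Hochberg adjusted p = 0.02465). Within the sides of the split the difference was -0.88 and -0.64. Without siCtrl replicate 1 or 2 or siFAM53C replicate 1 it was between -0.79 and -0.58 and was not called. TMED7 shares 810 of its 4055 exon bases with the readthrough gene TMED7-TICAM2 on the same strand, so its count may leave out reads from these bases; the readthrough gene had from 0 to 6 counts.

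TMED7 was also the only member whose longest annotated 3' UTR holds the heptamer GACAAGA. This heptamer was picked in an earlier look at the same fold changes as the one most tied to lower RNA, so its presence in a lower gene is a description and no independent evidence. It occurred in the 3' UTR of 1400 of 12075 tested genes (11.6%), in 17.8% of those with a 3' UTR of 2000 to 5000 bases, and in 1 of the 9 members. The 3' UTRs of TMED5 (4928 bases) and TMED10 (3416 bases), which fell as far as TMED7, do not hold it, nor does that of TMED3 (15928 bases). The site of TMED7 is shown with those of FAM53C and of the lower trafficking genes described further on, to let the bases around it be compared. Sites in listed genes that were not called, such as CNIH1 and SEC24A, are not shown. Each line gives the RNA-sense strand from 5′ to 3′ on GRCh38 (hg38), with the heptamer in capitals and 10 bases on either side:
TMED7, chr5:115614847-115614873, minus strand: ttctgaacaaGACAAGActgtcatatt
FAM53C, chr5:138347128-138347154, plus strand: gactggccggGACAAGAtaaacggagc
KDELR1, chr19:48383066-48383092, minus strand: ttgccttttaGACAAGAaaaaaaaatc
ARCN1, chr11:118602664-118602690, plus strand: aagggcttggGACAAGAagtctgtcat
ERGIC2, chr12:29340591-29340617, minus strand: aagccatattGACAAGAccagttatcc
BLZF1, chr1:169387954-169387980, plus strand: aaatgcaacaGACAAGAatatccaact

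The other γ members did not pass the test. TMED3 (chromosome 15) had 99.2, 95.2 and 89.9 CPM in siCtrl and 86.9 and 83.4 in siFAM53C, groups that did not overlap but lay close together. Its log2 fold change was -0.15 (SE 0.10). TMED1 (chromosome 19), first described as a ligand of an interleukin-1 receptor relative, had the lowest CPM of the members before correction for length, with 10.5, 10.5 and 9.01 CPM in siCtrl and 7.33 and 9.12 in siFAM53C. These groups overlapped, and the log2 fold change of -0.28 had an SE of 0.21; within the sides of the split it was -0.51 and 0.018. Of the 1884 exon bases of TMED1, 910 are shared with DNM2 on the opposite strand, a gene with at least 3397 counts per library, so its low count is uncertain if the counting did not use strand. Within libraries, TMED7 had 1.17, 1.37 and 1.45 counts for each count of TMED3 in siCtrl and 0.770 and 1.01 in siFAM53C. The ratio of TMED5 to TMED3 was 1.32, 1.58 and 1.86 against 0.927 and 1.13. Neither ratio overlapped between the groups (exact permutation, p = 0.1 and p = 0.2, both 0.25 when adjusted over the 5 ratios). These pairs were chosen after the fold changes had been seen, so the ratios restate those and add no separate evidence. The ratio of TMED5 to TMED7, the γ members that fell, was from 1.13 to 1.28 in siCtrl and 1.20 and 1.12 in siFAM53C, which overlapped (exact permutation p = 0.8).

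The α members showed no call in either direction. TMED4 (ENSG00000158604, chromosome 7 from 44577894 to 44582287) had 92.3, 95.5 and 99.9 CPM in siCtrl and 101.1 and 108.9 in siFAM53C. It was the only member with both siFAM53C libraries above every control, by a small margin. Its log2 fold change of 0.13 had an SE of 0.10 (edgeR quasi-likelihood, Benjamini-Hochberg adjusted p = 0.584). TMED9 (chromosome 5 from 177592203 to 177597242), which has been studied for holding misfolded membrane proteins in the early secretory pathway, had 154.8, 159.5 and 135.7 CPM in siCtrl and 134.2 and 145.1 in siFAM53C. These groups overlapped, and the log2 fold change was -0.10 (SE 0.11). TMED8 (chromosome 14 from 77335029 to 77377094) had 37.1, 44.8 and 40.4 CPM in siCtrl and 44.1 and 47.8 in siFAM53C. It overlapped as well, with a log2 fold change of 0.17 (SE 0.12). The count ratio of TMED4 to TMED9 was 0.597, 0.599 and 0.736 in siCtrl and 0.754 and 0.751 in siFAM53C, so that siCtrl replicate 3 lay close to the knock-down libraries (exact permutation p = 0.2, adjusted 0.25). In all, 5 members lay below every control in both siFAM53C libraries, 1 lay above and 3 overlapped; over all genes tested, 18.8% lay below and 16.7% above.

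**Figure D2:**
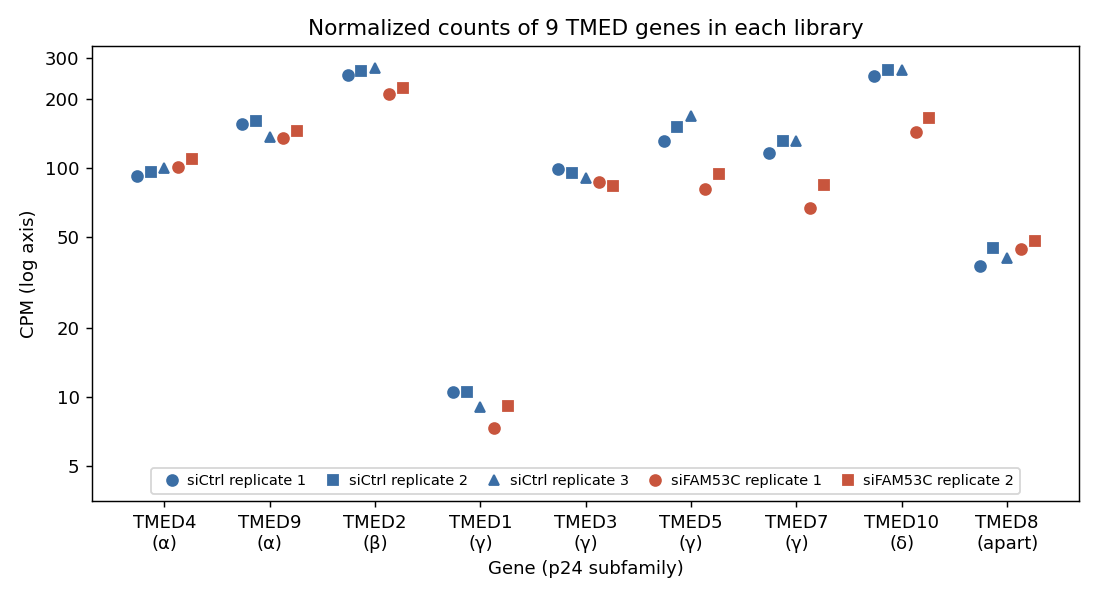
CPM of each TMED gene on a log axis, with 1 point per library, the 3 siCtrl libraries in blue and the 2 siFAM53C libraries in red, and the subfamily under each name. TMED5, TMED7 and TMED10 show the widest gap between the groups, whereas TMED1, TMED8 and TMED9 overlap.

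Across 13 alternative settings, the sign of the log2 fold change was that given here for each of the 9 members. TMED10 ranged from -0.87 to -0.68, TMED5 from -0.89 to -0.68 and TMED7 from -0.91 to -0.58. TMED4 (0.074 to 0.20) and TMED8 (0.11 to 0.25) lay above 0 throughout and TMED9 below it (-0.17 to -0.032). Each of the 3 lower genes was called in 10 of the 13 settings, and the 3 settings without a call each left out 1 library. With a term for the library split, 4 members were lower and 0 higher (adjusted p, edgeR), beside 10.7% and 6.76% of all genes.

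**Figure D3:**
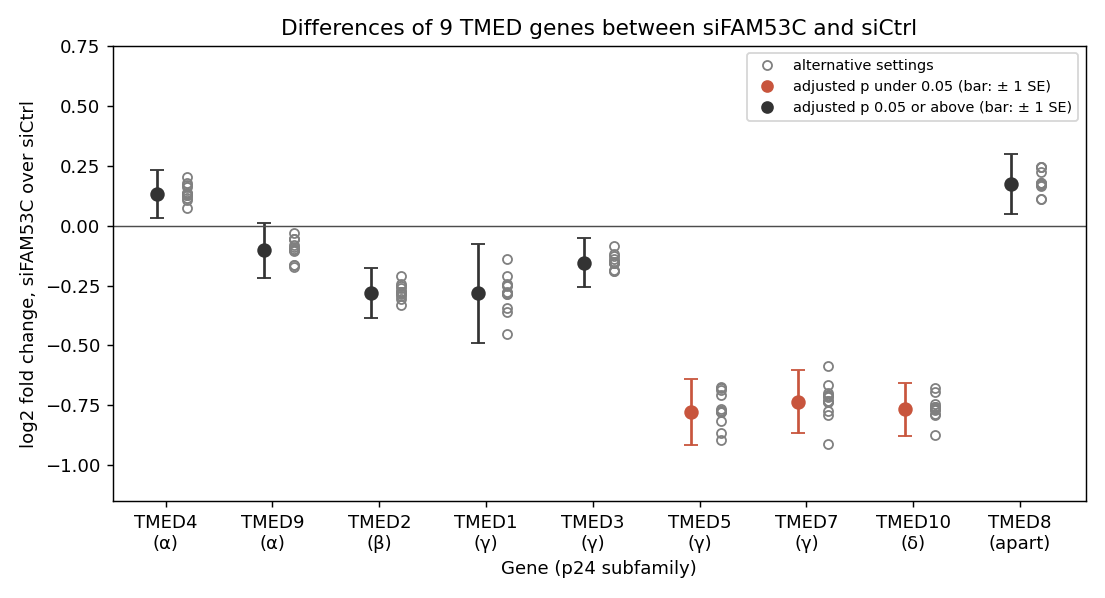
log2 fold change of siFAM53C over siCtrl for each TMED gene, with filled points for the reported fit (bars, ± 1 SE; red where the adjusted p is under 0.05) and open circles for the 13 alternative settings. The open circles of TMED5, TMED7 and TMED10 all lie below -0.58, and those of the other genes lie between -0.45 and 0.25.

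Levels were compared between members per length, as CPM per kb of the union of annotated exons. In siCtrl the order was TMED2 (68.8 ± 2.42, SD, n = 3), TMED10 (52.7 ± 1.63), TMED9 (42.7 ± 3.58), TMED7 (31.0 ± 2.09), TMED4 (25.5 ± 1.01) and TMED5 (16.2 ± 2.00), each separated from the next in every control library. TMED1 (5.31 ± 0.457), TMED8 (5.25 ± 0.497) and TMED3 (4.88 ± 0.241) followed and overlapped with one another. The place of TMED3 rests on its length: 1 annotated transcript with a 3' UTR of 15928 bases brings its exon union to 19413 bases, and per kb of its canonical transcript (1418 bases) it had 66.8 ± 3.30 (SD, n = 3), next to TMED2 and overlapping with TMED10 (63.6 ± 1.97). In siFAM53C, TMED10 had 31.0 ± 3.02 (SD, n = 2) and TMED7 18.6 ± 2.99 per kb of exon union, below TMED9 (39.8 ± 2.20) and TMED4 (27.9 ± 1.46), respectively. TMED4, which lay below TMED7 in each control library, thus lay above it in both knock-down libraries; per kb of canonical transcript TMED4 (41.8 ± 1.66) was already above TMED7 (32.0 ± 2.16) in siCtrl.

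The summed level of the 9 genes was 243.8, 258.2 and 254.9 CPM per kb in siCtrl and 188.0 and 207.9 in siFAM53C. The makeup of this pool differed as well. The α members took 28.1%, 27.4% and 25.6% of it in siCtrl and 34.6% and 33.8% in siFAM53C. The δ member TMED10 took 20.9%, 20.8% and 21.1% in siCtrl and 15.4% and 15.9% in siFAM53C. The γ share was from 21.9% to 23.5% in siCtrl and 17.9% and 19.3% in siFAM53C. The β share of TMED2 was 27.15%, 26.81% and 27.85% in siCtrl and 29.17% and 28.07% in siFAM53C. TMED8 took 1.961%, 2.235% and 2.044% against 3.025% and 2.964%. No share overlapped between the groups, so the lack of overlap does not set the α, δ and γ shares apart. How often shares would separate by chance was not tested. The β share overlapped with canonical transcript lengths, at 25.23%, 25.33% and 26.41% in siCtrl and 26.09% and 25.82% in siFAM53C. With canonical transcript lengths the γ share, then mostly TMED3, was 32.4% ± 0.126 (SD, n = 3) and 30.3% ± 0.420 (SD, n = 2) in the knock-down libraries, and the α share was 24.9% ± 0.887 and 30.6% ± 0.0792. Shares add up to the whole, so a larger α share accompanies smaller δ and γ shares without more α RNA.

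**Figure D4:**
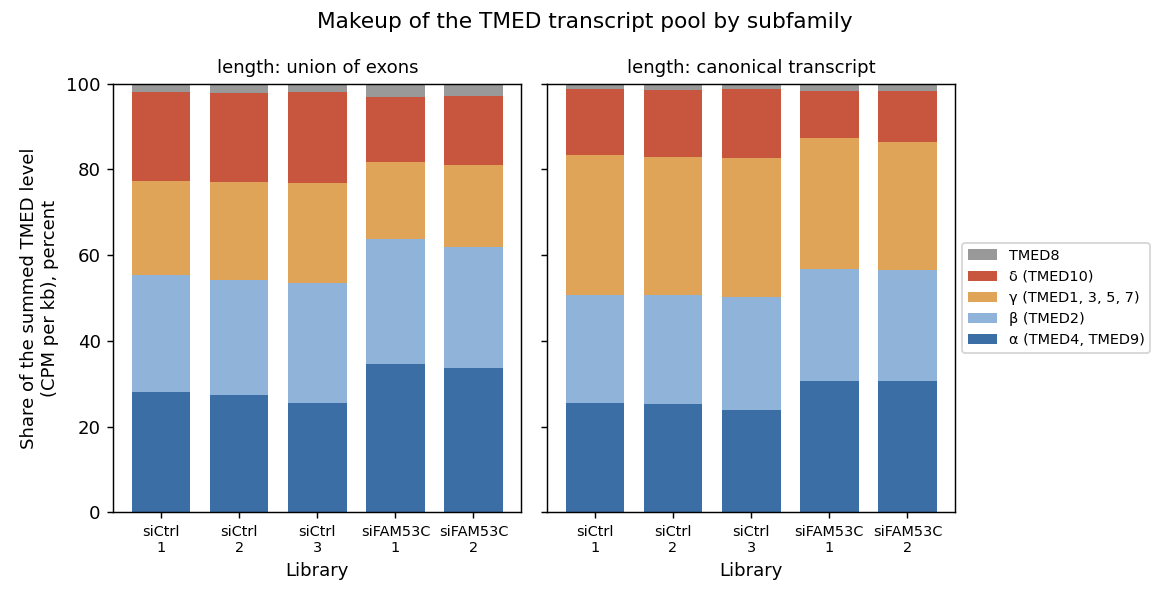
Share of the summed TMED level (CPM per kb) taken by each subfamily in each library, in percent, as stacked bars from 0 to 100, with the exon union as the length on the left and the canonical transcript on the right. In both panels the α share is larger and the δ share smaller in the 2 siFAM53C libraries than in the 3 siCtrl libraries.

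**Figure D5:**
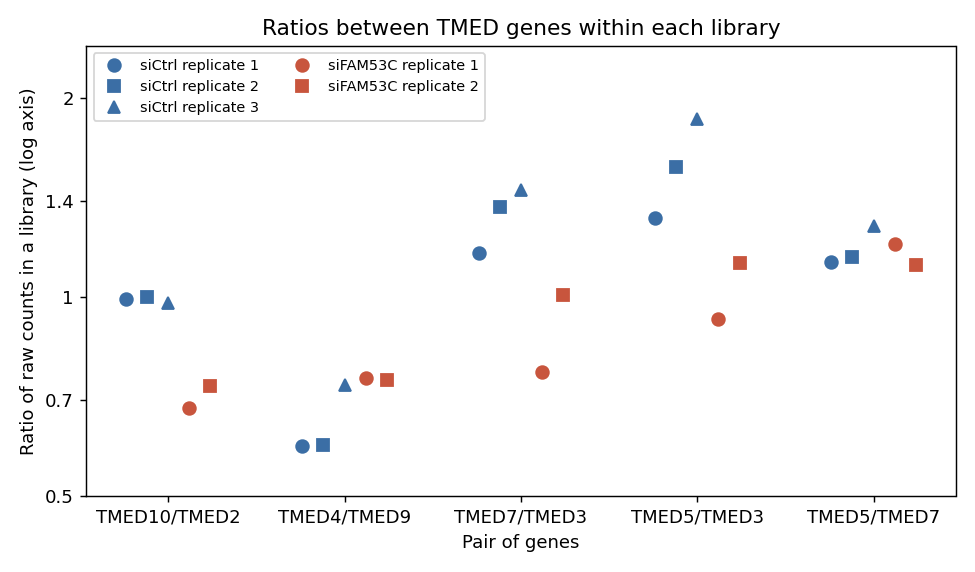
Ratio of the raw counts of 5 pairs of TMED genes within each library, on a log axis, with siCtrl in blue and siFAM53C in red. The ratio of TMED10 to TMED2 lies from 0.979 to 1.001 in siCtrl and at 0.681 and 0.734 in siFAM53C, and that of TMED5 to TMED7 overlaps between the groups.

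The other genes of p24 transport were taken from 6 lists, whose counts stand beside 3.47% lower and 0.489% higher over all genes tested (10.5% and 6.61% at an unadjusted p under 0.05). Of 21 other cargo receptors of the ER and Golgi, 20 were tested, 2 were lower and 0 higher (6 and 0 at an unadjusted p under 0.05), with a median log2 fold change of -0.15. KDELR1, a receptor that returns escaped ER chaperones from the Golgi, had 205.2, 222.0 and 195.3 CPM in siCtrl and 48.1 and 45.5 in siFAM53C, and fell by 2.15 on the log2 scale with an SE of 0.11 (edgeR quasi-likelihood, Benjamini-Hochberg adjusted p = 0.000336). ERGIC2, a membrane protein that cycles between the ER and its intermediate compartment, fell by 0.73 (SE 0.10), close to the change of the 3 p24 genes. ERGIC2 was not called without siCtrl replicate 2 or with 1 of the siFAM53C libraries left out, whereas KDELR1 was called in all 13 alternative settings. Receptors with no call included SURF4 (0.055), LMAN1 (-0.072) and its partner MCFD2 (-0.58, edgeR adjusted p = 0.05245).

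The lists for the coats that p24 tails bind also hold genes that are not coat subunits. Examples are ARF1 and GBF1 for COPI and SEC16A for COPII. Over the 17 genes listed for COPI the median was -0.012. Of these, 1 was lower and 0 were higher (4 and 1 at an unadjusted p under 0.05), beside 3.47% and 0.489% of all genes. This was ARCN1, the δ subunit of the COPI coat, which had 266.3, 292.1 and 295.0 CPM in siCtrl and 113.8 and 121.5 in siFAM53C. It fell by 1.27 on the log2 scale (SE 0.11) and was called in every alternative setting. Of 14 tested COPII genes, 1 was lower and 0 higher (2 and 1 at an unadjusted p under 0.05), with a median of -0.021. SEC24D, a cargo-binding subunit of this coat, had from 164.9 to 175.6 CPM in siCtrl and 108.8 and 123.1 in siFAM53C and fell by 0.56 (SE 0.11). SEC24D was called in 1 of the 5 fits that left out a library, the one without siCtrl replicate 3. Among 7 Golgi matrix and tether genes the median was 0.16, 1 was lower and 0 higher (1 and 2 at an unadjusted p under 0.05). BLZF1, which encodes the partner golgin-45 of the Golgi stacking protein GORASP2, fell by 1.05 (SE 0.14), and was not called without siFAM53C replicate 1 or without replicate 2. GORASP1 (0.28) and GORASP2 (-0.11) were not called.

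GPI-anchored proteins are the best known cargo of p24 complexes, and their anchors are trimmed in the ER before export. Of 28 tested genes of GPI anchor synthesis and remodelling, 1 was lower and 0 higher (4 and 1 at an unadjusted p under 0.05), with a median of -0.027. A single call among this many genes is close to the 3.47% of all genes called lower. The lower gene was PGAP1, the deacylase that removes an acyl chain from the new anchor. PGAP1 had 22.9, 24.02 and 35.4 CPM in siCtrl and 13.0 and 14.2 in siFAM53C, with siCtrl replicate 3 well above the other controls. It fell by 1.01 on the log2 scale with an SE of 0.22 (edgeR quasi-likelihood, Benjamini-Hochberg adjusted p = 0.0495), just inside the threshold, and in the leave-one-out fits it was called only without siCtrl replicate 3. MPPE1, which trims the anchor after PGAP1, had a log2 fold change of 0.0051. Of 27 tested genes for GPI-anchored proteins, 1 was lower and 0 higher (6 and 1 at an unadjusted p under 0.05), with a median of -0.21. This was PLAUR, the urokinase receptor, which had 232.5, 228.9 and 203.8 CPM in siCtrl and 127.1 and 124.8 in siFAM53C and fell by 0.82 (SE 0.11). PLAUR was called in 1 of the 5 leave-one-out fits, the one without siCtrl replicate 3. NT5E (CD73), at 1377 ± 114 CPM (SD, n = 3) in siCtrl the most abundant of the GPI-anchored proteins named here, had a log2 fold change of -0.33 and was not called.

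Over the 6 lists, 7 of 113 tested genes were called lower and 0 higher by edgeR, beside 3.47% and 0.489% of all genes. At an unadjusted p under 0.05 of its quasi-likelihood test, 23 were lower and 6 higher, beside 10.5% and 6.61%. By DESeq2, 11 were lower and 1 higher, beside 6.98% and 2.02% of the genes to which it gave an adjusted p. The 3' UTRs of 4 of the 7 (KDELR1, ARCN1, ERGIC2 and BLZF1) hold GACAAGA, those of SEC24D, PGAP1 and PLAUR do not, and 14 of the 113 genes hold it. Over all genes called lower that have an annotated 3' UTR, 212 of 524 (40.5%) hold it. Among all tested genes with an annotated 3' UTR the share is 11.6%. The heptamer was picked on these fold changes, so its excess among lower genes is no independent evidence. How much of the excess comes from that choice was not tested.

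The genes with a profile most like that of TMED5, the member with the lowest log2 fold change, were found by the distance between log2 CPM profiles over the 5 libraries, each centred on its siCtrl mean, among 9293 genes with a mean of at least 10 CPM. TM2D2 was nearest (distance 0.0702), followed by FAR1 (0.0841), an enzyme of ether lipid synthesis, and ADPGK (0.101), an ADP-dependent glucokinase of the ER. TM2D2 had 51.5, 56.0 and 64.8 CPM in siCtrl and 30.5 and 37.1 in siFAM53C. Like TMED5 it was highest in siCtrl replicate 3, which follows from its choice by distance. The distance from TMED5 was 0.165 to TMED7 and 0.197 to TMED10, and that between TMED7 and TMED10 was 0.126. Genes outside the family lay closer to these members: GNL3 was at 0.064 from TMED10 and at 0.110 from TMED7. The nearest of 9293 genes is likely to lie closer than any given gene. These distances therefore do not tell whether the members follow one another more than other genes do.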

How the data were processed

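RNA of 5 RPE-1 libraries was sequenced as paired reads. Per the study's methods and labels, reads were trimmed with cutadapt 2.10, aligned to hg38 with HISAT2 (reverse strandedness) and counted on genes with featureCounts; the annotation release and the strand setting of the counting are not given in the sources used here. The authors deposited raw counts per gene, with no normalization or filter, and each column matched 1 sample label. The text of the methods gives duplicates and the table holds 3 controls; all 5 libraries were used. Nothing says that libraries came from separate cultures, so p-values measure only the spread between these libraries. Totals of 19260124 to 25615415 counts limit the precision for genes with few counts.

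Genes were tested with edgeR 4.0.16 in R 4.3.3. Those with few counts were dropped with filterByExpr (a minimum count of 10, scaled to library size, in at least as many libraries as the smaller group has, and 15 counts in total), libraries were scaled with TMM, and siFAM53C was compared with siCtrl without covariates by the quasi-likelihood test with robust estimation. P-values were adjusted after Benjamini and Hochberg over 15341 genes (threshold 0.05). SEs were derived from the log2 fold change and its F statistic. log2 CPM used a prior count of 2. Alternatives were DESeq2 1.42.0, other scaling, no filter, no robust estimation, replicate blocks, a term for the library split and each library left out. Symbols, positions, exon lengths and the longest 3' UTRs are from GENCODE 44 on GRCh38, whose release may differ from that of the authors. The members, lists, ratios and alternatives were chosen with earlier results of these data known. Genes were named by a rule: the members, FAM53C, up to 4 called genes per list, and the 3 genes nearest to the member with the largest called change; others named for context were chosen after their values were seen.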

Additional observations from a re-analysis of the deposited data

How the results depend on the processing

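TMED members called lower numbered 3 and higher 0 with the reported settings; leaving out 1 library gave from 0 to 3 lower members, 0 without siCtrl replicate 2 or siFAM53C replicate 1 1 without siCtrl replicate 1 and 2 without siFAM53C replicate 2, with fewer samples in each such fit. Their median log2 fold change of -0.28 was -0.21 with total counts only and from -0.33 to -0.19 with 1 library left out. Over all genes, 533 were called lower and 75 higher with the reported settings. There were 121 higher with total counts only, 890 lower and 257 higher with DESeq2, and 961 lower and 375 higher with no filter on low counts. With 1 library left out, the lower genes numbered 157 to 886 and the higher ones 6 to 414, the most without siCtrl replicate 3. With a term for the library split there were 1636 lower and 1037 higher genes. Why these counts moved was not tested. The replicate numbers of the titles gave 856 lower and 355 higher genes as a replicate block, and those of the library names 1350 and 642; TMED5, TMED7 and TMED10 were called lower under both blocks. The deviations of same-numbered libraries correlated at 0.169 and -0.285 by titles and at 0.169 and 0.371 by library names, with only 2 pairs, so the libraries share a number and no pairing is assumed. Fits without robust estimation and length by canonical transcript were added after seeing the data; by the latter the siCtrl level per kb of TMED3 was 66.8 in place of 4.88. Counts per gene limit TMED1 most, at 172 to 247 counts per library.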

Other observations

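TMED6, the γ family gene outside the 9 members, was near the limit of detection, with 18, 16 and 17 counts in siCtrl and 9 and 13 in siFAM53C. Both siFAM53C libraries lay below every control, and the log2 fold change of -0.89 had an SE of 0.61 and did not pass the test. TMED2-DT, the divergent noncoding transcript that starts beside TMED2, had 26, 5 and 26 counts in siCtrl and 54 and 47 in siFAM53C. Its log2 fold change of 1.14 (SE 0.62) did not pass the test and is opposite in sign to that of TMED2 (-0.28).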
